A study of Mus musculus with 12 samples.

Results

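In all, 10 genes of the Twist, Snail, Zeb, Prrx, E protein and forkhead families were followed across an RNA-seq study of 2 mouse cell lines. The members were Twist1 (gene identifier 22160), Twist2 (13345), Snai1 (20613), Snai2 (20583), Zeb1 (21417), Zeb2 (24136), Prrx1 (18933), Prrx2 (20204), Tcf4 (21413) and Foxc2 (14234). They were chosen by gene symbol, and all 10 were found among the 17995 genes of the expression table. The study asked what loss of the M5 muscarinic acetylcholine receptor, encoded by Chrm5, does to C18-4 cells, derived from mouse spermatogonial stem cells, and to TM4 cells, derived from mouse Sertoli cells. Each line had 3 libraries of cells given shM5, a mixture of shRNAs against Chrm5, and 3 libraries of cells given the control shRNA, shNC, so that there were 4 groups and 12 libraries. The labels give the strain as IRC for all of them and name the control groups C3NC and TM3NC and the knockdown groups CM5 and TMM5. Per the methods, the shRNAs were delivered to both lines with RNAi-mate and stably transfected cells were kept in culture. No label says that libraries of a group came from separate cultures, so the p-values below measure only the spread between these libraries. Each cell type was represented by 1 line, and the line and the preparation of its libraries cannot be told apart.

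The factors studied here are transcription factors known for the epithelial to mesenchymal transition, in which cells give up E-cadherin junctions and take on a migratory form. Snai1, Snai2, Zeb1 and Zeb2 are zinc finger proteins that bind E-boxes, short motifs spelled CANNTG, and repress epithelial genes such as Cdh1. Twist1 and Twist2 are basic helix-loop-helix factors that bind E-boxes as dimers with E proteins, of which Tcf4 is one, while Id proteins capture E proteins and keep them from DNA. Prrx1 and Prrx2 are paired-related homeobox factors of limb and craniofacial mesenchyme, and Foxc2 is a forkhead factor of mesoderm and lymphatic vessels. In the testis such factors are known mainly from the interstitial and peritubular mesenchyme.

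Promoter sequences are shown for Twist2 and Prrx1, which were higher in TM4 cells, for Prrx2, which was higher in C18-4 cells, for Snai1, the member with an E-box in its window, and for Epcam, a membrane protein of epithelial cells, as a target with E-boxes. RefSeq sequences on GRCm38.p6, from 250 bases before to 50 bases after the start of a gene, were matched to 6 of the 10 members. Each is printed 5′ to 3′ on the strand of the gene, with CANNTG motifs in capitals. The Twist2 window lies at chr1:91801211-91801510 on the plus strand, that of Snai1 at chr2:167537945-167538244 on the plus strand, that of Prrx1 at chr1:163313601-163313900 on the minus strand, that of Prrx2 at chr2:30845117-30845416 on the plus strand and that of Epcam at chr17:87635729-87636028 on the plus strand.
Twist2: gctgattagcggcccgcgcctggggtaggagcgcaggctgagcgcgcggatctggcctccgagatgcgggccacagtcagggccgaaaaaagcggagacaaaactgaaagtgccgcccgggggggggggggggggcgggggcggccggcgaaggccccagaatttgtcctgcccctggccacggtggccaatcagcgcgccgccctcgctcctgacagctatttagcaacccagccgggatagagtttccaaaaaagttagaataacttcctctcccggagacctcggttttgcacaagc
Snai1: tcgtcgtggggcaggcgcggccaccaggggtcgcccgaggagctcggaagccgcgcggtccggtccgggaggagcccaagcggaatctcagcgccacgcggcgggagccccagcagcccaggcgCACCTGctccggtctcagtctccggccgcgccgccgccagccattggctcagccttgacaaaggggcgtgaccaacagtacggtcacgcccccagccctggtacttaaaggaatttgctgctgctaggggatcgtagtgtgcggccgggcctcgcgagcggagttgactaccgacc
Prrx1: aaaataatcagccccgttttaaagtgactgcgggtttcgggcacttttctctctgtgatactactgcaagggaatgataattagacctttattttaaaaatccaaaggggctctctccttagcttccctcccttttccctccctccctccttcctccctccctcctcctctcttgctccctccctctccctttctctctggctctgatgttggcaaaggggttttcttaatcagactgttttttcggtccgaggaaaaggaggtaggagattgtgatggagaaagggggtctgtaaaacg
Prrx2: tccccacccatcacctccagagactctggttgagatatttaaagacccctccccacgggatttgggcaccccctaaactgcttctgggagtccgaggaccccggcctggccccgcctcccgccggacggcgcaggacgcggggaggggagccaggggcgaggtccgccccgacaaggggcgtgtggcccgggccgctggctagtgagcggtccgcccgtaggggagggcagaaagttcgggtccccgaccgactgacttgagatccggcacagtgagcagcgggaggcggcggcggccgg
Epcam: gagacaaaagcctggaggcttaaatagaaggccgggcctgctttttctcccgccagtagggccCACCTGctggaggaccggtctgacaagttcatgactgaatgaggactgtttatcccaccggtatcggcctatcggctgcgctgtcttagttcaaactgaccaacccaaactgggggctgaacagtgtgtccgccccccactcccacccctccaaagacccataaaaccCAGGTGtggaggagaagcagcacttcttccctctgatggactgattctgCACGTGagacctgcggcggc
Both strands were searched, which for this palindromic spelling is 1 search. The Snai1 window held 1 motif, CACCTG, and the Epcam window held 3, of which 2 were CACCTG or its reverse complement CAGGTG and the other was CACGTG. No CANNTG was found in the windows of Twist1, Twist2, Zeb2, Prrx1 and Prrx2. Of all 32851 windows of this length, 72.3% held CANNTG and 20.2% held CAGGTG or CACCTG. A match is a run of letters only, and binding was not measured.

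The values are RPKM, reads scaled to gene length and library size, so that levels of different genes can be set side by side per length. The read depth is not given. An estimate of the relative value of 1 read, from the lowest values of rarely read genes, ranged from 0.985 to 1.02 over the libraries. It used only values close to the lowest of each gene, set against their median, so it could not show a large difference in depth. Chrm5 was listed at 0.01 RPKM in C18-4 shNC replicate 2 and TM4 shNC replicate 1 and at 0 in the other 10 libraries, so its knockdown could not be checked. Markers went partly against the labelled cell types. In C18-4 shNC cells the germ cell markers Ddx4 (0.0133 RPKM), Dazl (0.02 RPKM) and Zbtb16 (0.00667 RPKM) were near 0 and 10 of 13 germ cell markers had a mean under 0.5 RPKM, while Uchl1, a marker that spermatogonia share with neurons, was at 102 RPKM and Wt1, a Sertoli cell gene, at 58.6 RPKM. In TM4 shNC cells Sox9 was at 1.35 RPKM, Amh at 0.103 RPKM and Wt1 at 0.0967 RPKM, but Kitl was at 40.5 RPKM, Gata4 at 9.75 RPKM and Gdnf at 7.72 RPKM. Of 11 Sertoli cell markers, 4 were under 0.5 RPKM in TM4 cells and 8 had a higher mean there than in C18-4 cells. The lines are therefore called by their names. TM4 shNC replicate 3 differed from shNC replicates 1 and 2 by a root mean square of 0.640 and 0.642 on the log2 scale and from the 3 shM5 libraries by 0.202 to 0.257, so the tests of the members that involve it are also given without it. C18-4 shNC replicate 3 was 0.438 and 0.418 from the other shNC libraries, against 0.2001 between those.

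Prrx1, Twist2 and Snai2 were the highest members in TM4 cells, and Twist1 was the highest in C18-4 cells. With means ± SD over 3 shNC libraries, the order in C18-4 cells was Twist1 at 17.3 ± 1.51 RPKM, Tcf4 at 11.98 ± 0.525, Prrx2 at 11.5 ± 1.07, Zeb1 at 10.9 ± 3.37, Twist2 at 7.82 ± 0.938, Snai1 at 7.71 ± 1.03, Zeb2 at 6.95 ± 0.572, Snai2 at 3.92 ± 0.535, Prrx1 at 2.32 ± 0.580 and Foxc2 at 0.873 ± 0.0643. Neighbours from Tcf4 down to Zeb2 overlapped in their libraries, while Twist1 lay above Tcf4, and Snai2, Prrx1 and Foxc2 each lay below the member before it. In TM4 cells the order was Prrx1 at 146 ± 8.93 RPKM, Twist2 at 119 ± 18.5, Snai2 at 99.0 ± 43.8, Zeb2 at 39.0 ± 10.5, Twist1 at 28.2 ± 1.24, Tcf4 at 19.0 ± 2.95, Snai1 at 17.1 ± 5.39, Zeb1 at 15.0 ± 2.39, Prrx2 at 1.61 ± 1.28 and Foxc2 at 0.00667. Overlap was seen between Twist2 and Snai2, Zeb2 and Twist1, Tcf4 and Snai1, and Snai1 and Zeb1. Prrx1 in TM4 cells exceeded 96.8% of all genes, and in C18-4 cells 43.5%.

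**Figure D1:**
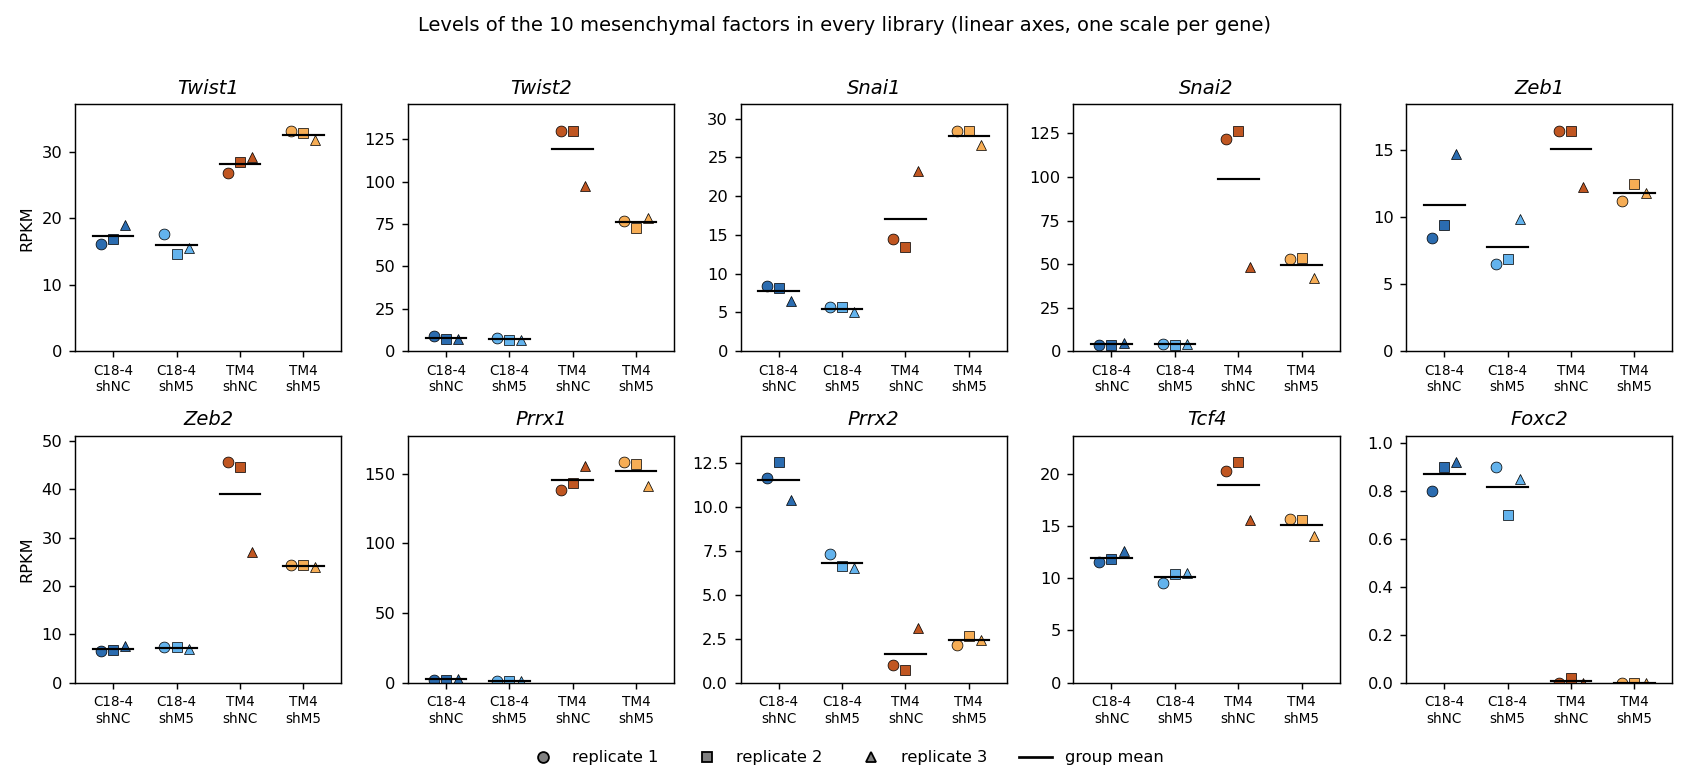
RPKM of the 10 members in every library, with the group on the x axis, 1 symbol per replicate number and a line at the group mean; each panel has its own linear axis from 0. The TM4 libraries lie far above the C18-4 libraries for Twist2, Snai2, Zeb2 and Prrx1 and below them for Prrx2 and Foxc2, and TM4 shNC replicate 3 lies at 48.45 RPKM for Snai2 against 121.96 and 126.44 in the other shNC libraries.

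The lines were compared in the shNC libraries to ask which factors distinguish them. Of the 9 members that could be tested, 7 were higher in TM4 cells at an adjusted p below 0.05, Prrx2 was lower and Zeb1 did not pass. Among all 11810 genes tested, 55.2% passed this threshold and 20.5% passed it with a higher level in TM4 cells. At the limits of the study's methods, an adjusted p no higher than 0.001 with a log2 difference of 1 or more in size, Twist2, Snai2, Zeb2 and Prrx1 were higher and no member was lower, against 19.2% of all genes in either direction and 6.38% higher. All p-values are from limma on log2(RPKM + 0.1) with Benjamini-Hochberg adjustment over all genes tested, and log2 differences are on that scale. The groups did not overlap for 8 of the 9 members, as for 63.6% of all genes. The median of all genes in this comparison was -0.15 and moved to 0.01 after quantile normalisation. The calls at the stricter limits were 754 higher of 2265 without it and 1079 higher of 2282 with it. The median log2 difference of the 9 members was 1.10.

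Twist1, needed for cranial mesenchyme, was present in both lines. C18-4 shNC libraries gave 16.13, 16.82 and 19.02 RPKM and TM4 shNC libraries 26.81, 28.44 and 29.24 RPKM. The groups did not overlap, and the log2 difference was 0.70 (SE 0.11, adjusted p = 0.00162, limma). Twist2, its close relative in dermis and bone, gave 8.90, 7.18 and 7.39 RPKM in C18-4 cells and 129.66, 129.91 and 97.69 RPKM in TM4 cells. Its log2 difference was 3.90 (SE 0.15, adjusted p = 1.5e-06), and the mean was 15.2 times as high in TM4 cells. The Twist2 to Twist1 ratio, with a median of 0.427 in C18-4 shNC cells and 4.57 in TM4 shNC cells, thus lay on opposite sides of 1 in the lines.

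Snai1, the early acting Snail repressor, gave 8.46, 8.14 and 6.53 RPKM in C18-4 cells and 14.45, 13.45 and 23.25 RPKM in TM4 cells. It was higher in TM4 cells by 1.10 (SE 0.23, adjusted p = 0.00624), with replicate 3 the highest TM4 shNC library. Snai2, known as Slug and prominent in neural crest and mesenchyme, gave 3.59, 3.64 and 4.54 RPKM in C18-4 cells. TM4 shNC libraries gave 121.96, 126.44 and 48.45 RPKM. Even the lowest TM4 library was above all C18-4 libraries, the mean was 25.2 times as high, and the log2 difference was 4.51 (SE 0.37, adjusted p = 5.7e-05). Snai2 exceeded Snai1 in each TM4 shNC library, by 8.44, 9.40 and 2.08 times, while in C18-4 shNC cells the median ratio was 0.447.

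Zeb1 was the member whose lines overlapped. It gave 8.44, 9.41 and 14.70 RPKM in C18-4 shNC libraries and 16.39, 16.40 and 12.26 RPKM in TM4 shNC libraries, a log2 difference of 0.49 with a 95% interval from -0.06 to 1.05 (adjusted p = 0.114). Replicate 3 was the highest library in C18-4 cells and the lowest in TM4 cells. Zeb2, the other zinc finger homeobox repressor, gave 6.46, 6.82 and 7.58 RPKM in C18-4 cells and 45.54, 44.55 and 26.95 RPKM in TM4 cells. It was 5.61 times as high in TM4 cells by the means, with a log2 difference of 2.43 (SE 0.22, adjusted p = 9.44e-05).

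Prrx1 and Prrx2 differed in opposite directions. Prrx1 gave 1.99, 1.98 and 2.99 RPKM in C18-4 shNC cells and 138.16, 143.04 and 155.47 RPKM in TM4 shNC cells, 62.7 times as high by the means. Its log2 difference of 5.94 (SE 0.18, adjusted p = 4.87e-07) was the largest among the members. Prrx2 gave 11.64, 12.51 and 10.39 RPKM in C18-4 cells and 1.01, 0.75 and 3.08 RPKM in TM4 cells, so that every C18-4 library lay above every TM4 library. It was 7.14 times as high in C18-4 cells by the means, and the log2 difference was -3.01 (SE 0.46, adjusted p = 0.00151). The median Prrx2 to Prrx1 ratio was 5.85 in C18-4 shNC cells and 0.00731 in TM4 shNC cells.

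Tcf4, an E protein that can pair with Twist factors, gave 11.57, 11.79 and 12.57 RPKM in C18-4 cells and 20.21, 21.08 and 15.59 RPKM in TM4 cells. The groups did not overlap and differed by 0.65 (SE 0.14, adjusted p = 0.00806). Foxc2 gave 0.80, 0.90 and 0.92 RPKM in C18-4 shNC cells and 0.00, 0.02 and 0.00 RPKM in TM4 shNC cells. Its mean over the 6 libraries was under the filter of 0.5 RPKM, it was not tested, and no fold is given against a group at or near 0.

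The shM5 libraries of both lines, which the comparison above did not use, gave the same direction for the 9 members tested. At the stricter limits Twist1, Twist2, Snai1, Snai2, Zeb2 and Prrx1 were higher in TM4 cells and Prrx2 was lower, against 25.2% of all genes. Snai1 differed by 2.32 there and by 1.10 in shNC cells, Prrx1 by 7.001 and 5.94, Snai2 by 3.55 and 4.51, and Prrx2 by -1.47 and -3.01. Without TM4 shNC replicate 3 the comparison of shNC cells called Prrx2 lower as well, at -3.58, where 26.5% of all genes were called. Foxc2 then passed the filter, through its C18-4 libraries alone, and nothing is read from its call. With the stricter limits and without C18-4 shNC replicate 3, 2 members stayed past them in place of 4, while Snai2 (adjusted p = 0.00116) and Zeb2 (adjusted p = 0.00138) missed the limit of 0.001. Zeb2 alone also missed it without C18-4 shNC replicate 1, at an adjusted p of 0.00108.

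**Figure D2:**
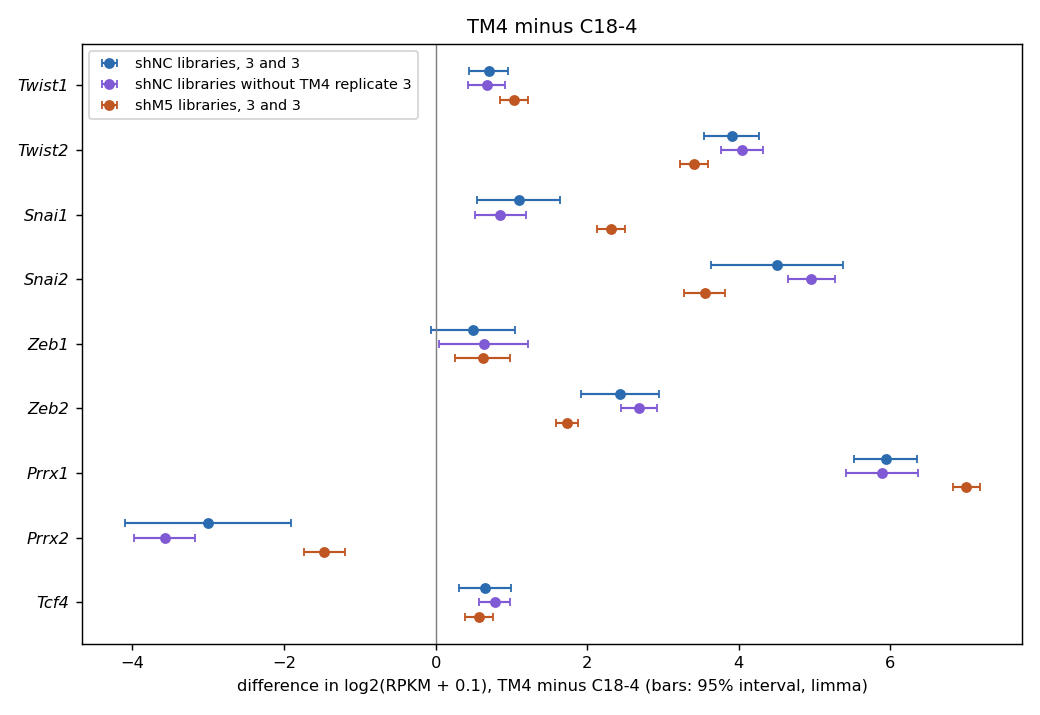
Difference in log2(RPKM + 0.1) between TM4 and C18-4 cells for the 9 members tested, as points with 95% intervals from limma, in the shNC libraries, in the shNC libraries without TM4 replicate 3 and in the shM5 libraries. Prrx1 stands at 5.94 in the shNC and 7.001 in the shM5 libraries, Prrx2 is the only member below 0, and the interval of Zeb1 in the shNC libraries includes 0.

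Genes that these factors are known to act on or with were taken from lists. Of 20 epithelial genes with values, 16 had a higher mean in C18-4 shNC cells, 2 had a higher mean in TM4 shNC cells and 2 were equal. In C18-4 cells 7 reached 0.5 RPKM and in TM4 cells 1, Pkp3 at 0.58 RPKM, and none reached it in both lines, so that the filter fixed the direction of any call and no count of calls is given. Krt19, a simple epithelial keratin, had a mean of 208 ± 24.4 RPKM in C18-4 shNC cells and 0.0133 RPKM in TM4 shNC cells, Krt18 had 73.8 ± 6.78 and 0.0167 RPKM, and Esrp2, a splicing factor of epithelia, 2.78 ± 0.274 and 0.0633 RPKM. Epcam, whose promoter is printed above, was at 1.48 ± 0.504 RPKM in C18-4 shNC cells and at 0 in every TM4 library. Cdh1, the E-cadherin gene, was near 0 in both lines, with means of 0.0333 and 0.00667 RPKM. The summed level of the list was 269 to 330 RPKM in C18-4 shNC cells, which came mostly from the keratins, and 0.83 to 1.13 RPKM in TM4 shNC cells.

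Of 20 mesenchymal genes, 16 reached 0.5 RPKM in both lines, Lox reached it in C18-4 cells alone, Col1a2 in TM4 cells alone and 2 in neither. Of 18 tested, 5 were higher and 3 lower in TM4 cells at the stricter limits, and 11 were higher and 4 lower at an adjusted p below 0.05, against 19.2% and 55.2% of all genes. Without TM4 shNC replicate 3, 7 were higher and 4 lower at the stricter limits, against 26.5% of all genes. The 18 genes of both fits include Lox and Col1a2, which passed the filter through 1 line alone. For these genes the filter fixed the direction of any call, and nothing is read from it. Vim, the intermediate filament of mesenchymal cells, was at 717 ± 73.1 RPKM in C18-4 and 784 ± 275 RPKM in TM4 shNC cells, a difference of 0.08 (adjusted p = 0.784, limma). S100a4, a calcium binding protein of migratory cells, was higher in TM4 cells by 1.60 (adjusted p = 0.00227). Sparc, a matrix glycoprotein, differed by -3.94 (adjusted p = 8.66e-06), and Cdh2, the N-cadherin gene, differed by -1.22 (adjusted p = 4.57e-05). Fn1 and Col1a2 were named after their values were seen. Fn1 was higher in TM4 cells by 6.07. Col1a2 was at 0.18 RPKM in C18-4 and 342 RPKM in TM4 shNC cells, and no difference is given against a group near 0.

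Of the 6 dimer partners and inhibitors, 5 were lower in TM4 cells at an adjusted p below 0.05, 3 of them also at the stricter limits, against 55.2% and 19.2% of all genes. Of these, Id4 reached 0.5 RPKM in C18-4 cells alone, so the filter fixed its direction. Without TM4 shNC replicate 3 the stricter limits called 5, against 26.5% of all genes. Id1 fell from 108 ± 16.7 RPKM in C18-4 to 43.4 ± 16.3 RPKM in TM4 shNC cells, Id2 from 66.2 ± 19.7 to 14.8 ± 4.55 RPKM and Id3 from 96.3 ± 7.44 to 23.7 ± 2.17 RPKM. Their log2 differences were -1.36, -2.15 and -2.02, with adjusted p of 0.0038, 0.000841 and 7.45e-06 (limma). Tcf3, an E protein like Tcf4, was lower by this test as well, at -1.07 (adjusted p = 0.0075), and Tcf12 was not called, at 0.26 (adjusted p = 0.207). Among the 17 corepressors and stability factors, which include the Ctbp and histone deacetylase partners of Snail and Zeb proteins, 0 passed the stricter limits and 2 were higher and 4 lower at an adjusted p below 0.05, and 1 passed the stricter limits without TM4 shNC replicate 3. The 3 highest were Csnk1a1 at 166 and 133 RPKM, Hdac2 at 107 and 79.7 RPKM and Ctbp1 at 90.7 and 87.1 RPKM in C18-4 and TM4 shNC cells.

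**Figure D3:**
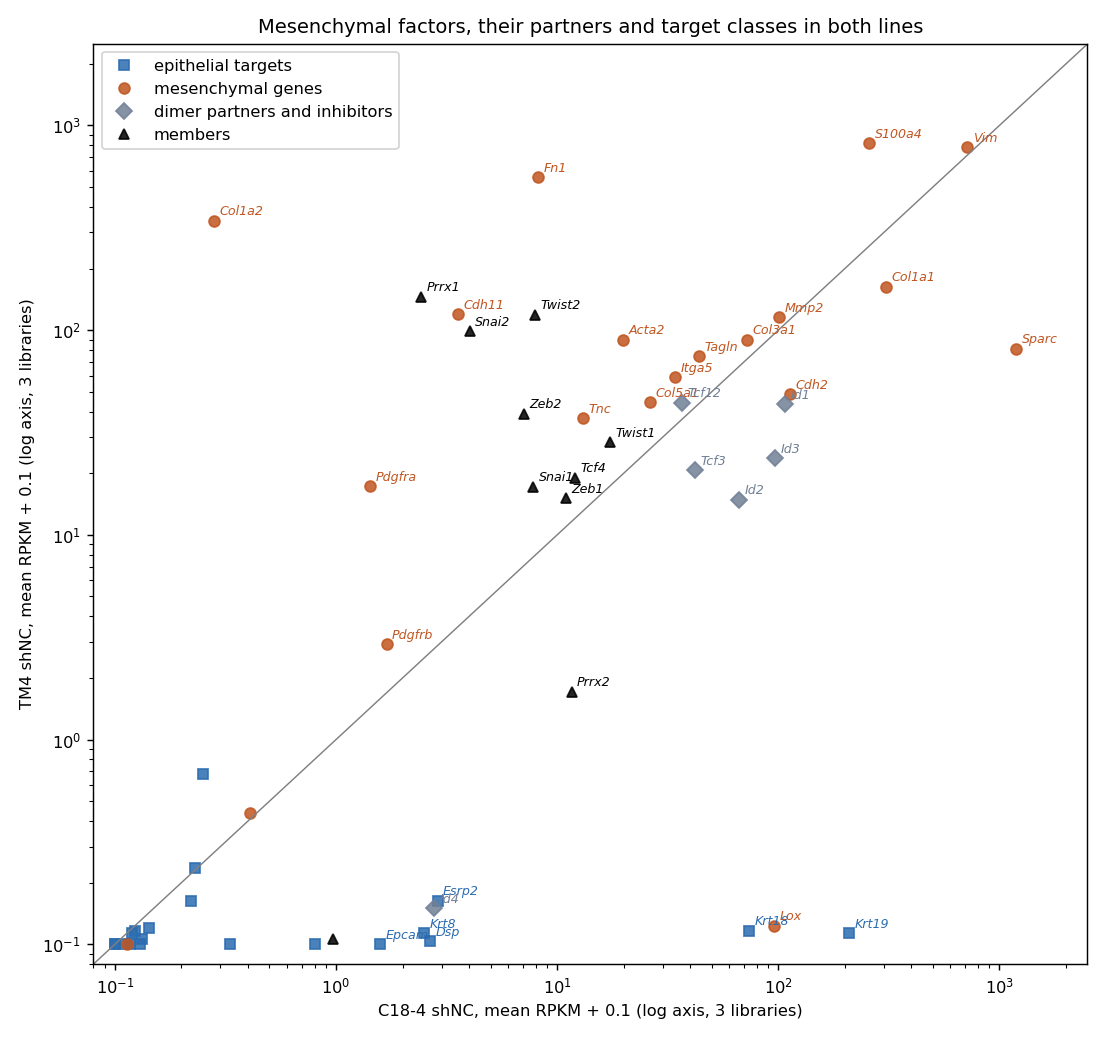
Mean RPKM + 0.1 over 3 shNC libraries of C18-4 cells (x axis, log) and TM4 cells (y axis, log), 1 point per gene for the 10 members, the epithelial genes, the mesenchymal genes and the dimer partners and inhibitors; the line marks equal levels. Krt18 and Krt19 lie at the lower right with 73.8 and 208 RPKM in C18-4 cells, and Prrx1, Snai2 and Twist2 lie at the upper left among mesenchymal genes.

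In C18-4 cells Prrx2 was the 1 member that was lower with shM5 at an adjusted p below 0.05, and no member passed the stricter limits. Over all 11611 genes tested, 0.586% and 0% passed the respective thresholds, and 1425 had an unadjusted p below 0.05. Prrx2 gave 11.64, 12.51 and 10.39 RPKM in shNC and 7.32, 6.65 and 6.49 RPKM in shM5 libraries. The groups did not overlap, and the log2 difference was -0.74 (SE 0.11, adjusted p = 0.041, limma). This call was lost with no filter on low values (adjusted p = 0.0706), with rescaling (0.0566), with no trend (0.0519), with quantile normalisation (0.0753), with all 12 libraries in 1 fit (0.513) and without any 1 of the libraries other than shNC replicate 3 (0.080 to 0.256). Prrx1 gave 1.99, 1.98 and 2.99 RPKM against 1.04, 1.11 and 1.11 RPKM, a ratio of means of 0.468 with all shM5 libraries below all shNC libraries. Its log2 difference was -1.003 with a 95% interval from -1.47 to -0.53, and the adjusted p of 0.0989 missed the threshold. With a pseudocount of 1 the difference was -0.66, and Prrx1 was the member called with quantile normalisation (adjusted p = 0.0499) and with all 12 libraries in 1 fit (adjusted p = 0.00655). Snai1 gave 8.46, 8.14 and 6.53 RPKM against 5.75, 5.69 and 5.07 RPKM, also without overlap, at -0.47 (SE 0.13, adjusted p = 0.204). Tcf4 was the fourth member without overlap, at 11.57, 11.79 and 12.57 RPKM against 9.56, 10.42 and 10.49 RPKM and a log2 difference of -0.24 (adjusted p = 0.336). The groups of 18.9% of all genes did not overlap.

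The other members of C18-4 cells overlapped between the groups. Zeb1 gave 8.44, 9.41 and 14.70 RPKM in shNC and 6.52, 6.89 and 9.86 RPKM in shM5 libraries, where replicate 3 was the highest of each group, and its log2 difference was -0.46 (SE 0.24, adjusted p = 0.523). Twist1 in shM5 libraries gave 17.58, 14.65 and 15.48 RPKM, Twist2 7.83, 6.55 and 6.90 RPKM, Snai2 4.25, 3.69 and 4.43 RPKM, Zeb2 7.30, 7.33 and 6.96 RPKM and Foxc2 0.90, 0.70 and 0.85 RPKM. Their log2 differences lay between -0.14 and 0.07. The intervals leave room for a change, from -0.37 to 0.12 for Twist1 and from -0.26 to 0.41 for Snai2.

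The replicate number was also used as a block in C18-4 cells, a pairing taken from the values themselves. Deviations of same-numbered shNC and shM5 libraries from their group means correlated at 0.439, 0.409 and 0.631. Replicates 1 and 2 of different number correlated nearly as well, at 0.341 and 0.345, so these 2 are paired only weakly. With the block Snai1 (adjusted p = 0.012), Zeb1 (adjusted p = 0.00984), Prrx1 (adjusted p = 0.00992) and Prrx2 (adjusted p = 0.0025) were lower in shM5 cells by limma at an adjusted p below 0.05, Tcf4 missed it at 0.0568, and no member passed the stricter limits. The block also raised the share of all genes called to 11.9%, with 6.73% lower, and to 0.0775% at the stricter limits. Each of these 4 members was lower in shM5 cells in all 3 pairs of libraries, as were Tcf4 and Twist2, which were not called. The block uses these same pairs, so this adds no separate evidence, and the share of all genes was not counted. Without both replicate 3 libraries these 4 and Tcf4 were lower at an adjusted p below 0.05, against 26.2% of all genes in either direction. In these cells the summed level of 5 peritubular myoid markers, mainly Tagln and Acta2, was 61.9 to 77.9 RPKM in shNC and 113 to 158 RPKM in shM5 libraries. Of the other myoid markers, Cnn1 had means of 3.33 and 3.42 RPKM, Des 5.26 and 4.99 RPKM, and Myh11 was near 0. The sum of 13 germ cell markers, mainly Uchl1, was 80.8 to 124 RPKM in shNC and 127 to 145 RPKM in shM5 libraries. Sertoli cell markers, mainly Wt1, summed to 67.9 to 73.9 and 76.7 to 84.5 RPKM. The part of these differences in the members' values was not tested, and in bulk libraries fewer cells of a type and less RNA per cell cannot be told apart. Leydig cell, macrophage and endothelial markers each summed to at most 4.28 RPKM in each C18-4 library.

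Of the epithelial genes, Krt19 was higher in shM5 C18-4 cells by 0.77 (adjusted p = 0.0417, limma) and the median of 7 tested was 0.32, against -0.00 for all genes. Under the block Krt18, at 0.32 (adjusted p = 0.00568), and Dsp, a desmosome protein, at 0.58 (adjusted p = 0.0185), were called too. Of 17 mesenchymal genes tested, Col3a1 at 0.59 (adjusted p = 0.0367) and Tnc at 0.89 (adjusted p = 0.041) were higher. With the block 5 were higher and 2 lower, with Acta2 higher by 1.34 and Lox lower, at -1.12, past the stricter limits. For every list here, the calls compare with 0.586% of all genes without the block and 11.9% with it. At the stricter limits with the block, 0.0775% of all genes passed. None of the 6 dimer partners and inhibitors or of the 17 corepressors and stability factors was called without the block by limma, and with it Id1 and Id3 were lower, at -0.27 and -0.26, Hdac1 was higher, at 0.23, and Ctbp1 was lower, at -0.21.

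TM4 cells gave no member past either threshold, and none of the 11016 genes tested passed them by limma (0% and 0% of all genes), although 2866 genes had an unadjusted p below 0.05. In most members shNC replicate 3 lay apart from the other shNC libraries. Snai2 gave 121.96, 126.44 and 48.45 RPKM in shNC and 52.64, 53.56 and 42.18 RPKM in shM5 libraries, a log2 difference of -0.88 (SE 0.37, adjusted p = 0.192). Replicates 1 and 2 of shNC lay above all shM5 libraries and replicate 3 lay among them. Twist2 gave 129.66, 129.91 and 97.69 RPKM against 76.95, 72.89 and 78.65 RPKM, without overlap, at -0.63 (SE 0.12, adjusted p = 0.192). Zeb2 gave 45.54, 44.55 and 26.95 RPKM against 24.33, 24.27 and 23.98 RPKM, also without overlap, at -0.65 (SE 0.20, adjusted p = 0.192).

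Snai1 moved the other way. It gave 14.45, 13.45 and 23.25 RPKM in shNC and 28.41, 28.35 and 26.59 RPKM in shM5 libraries, without overlap, at 0.74 (SE 0.21, adjusted p = 0.192). Twist1, at 26.81, 28.44 and 29.24 RPKM against 33.12, 32.73 and 31.74 RPKM, was likewise higher in each shM5 library, at 0.21 (SE 0.07, adjusted p = 0.192). These 4 members without overlap compare with 26.8% of all genes. Prrx2 gave 1.01, 0.75 and 3.08 RPKM against 2.12, 2.67 and 2.44 RPKM, so that shNC replicate 3 was the highest of the 6 libraries. Zeb1 gave 16.39, 16.40 and 12.26 RPKM against 11.17, 12.43 and 11.80 RPKM, and Tcf4 20.21, 21.08 and 15.59 RPKM against 15.71, 15.58 and 14.08 RPKM. The log2 differences of these 3 were 0.79 (adjusted p = 0.268, limma), -0.33 and -0.31 (adjusted p = 0.192 for both). Prrx1 stayed between 138.16 and 158.18 RPKM in all 6 libraries, with a log2 difference of 0.06 and an interval from -0.13 to 0.26. Foxc2 was listed at 0 in the shM5 libraries.

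TM4 shNC replicate 3 was nearer to the shM5 mean than to the mean of the other shNC libraries for 8 of 9 members on the log2 scale, with Twist1 the exception. The same held for 84.9% of all genes tested. Without that library 8 of the 9 members passed an adjusted p below 0.05, as did 67.4% of all genes. Snai2 was lower, at -1.33 (SE 0.10, adjusted p = 1.71e-05, limma), and Prrx2 higher, at 1.36 (SE 0.17, adjusted p = 0.000287), past the stricter limits, which 8.13% of all genes passed. Snai1 was higher by 0.99 (adjusted p = 6e-06) and Twist1 by 0.24 (adjusted p = 0.00357). Zeb2 at -0.89 (adjusted p = 2.58e-06), Twist2 at -0.77 (adjusted p = 5.74e-06), Zeb1 at -0.47 (adjusted p = 0.00037) and Tcf4 at -0.45 (adjusted p = 0.00057) were lower, and Prrx1 was not called, at 0.11 (adjusted p = 0.12). The ratio of Snai2 to Snai1 was 8.44 and 9.40 in shNC replicates 1 and 2, 2.08 in replicate 3 and 1.59 to 1.89 in the shM5 libraries. Leaving out both replicate 3 libraries called 3 members at the stricter limits and 9 at an adjusted p below 0.05, against 9.26% and 72.7% of all genes. The fit without shNC replicate 3 rests on 2 shNC libraries, and whether replicate 3 or the other shNC libraries show the control state was not tested.

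**Figure D4:**
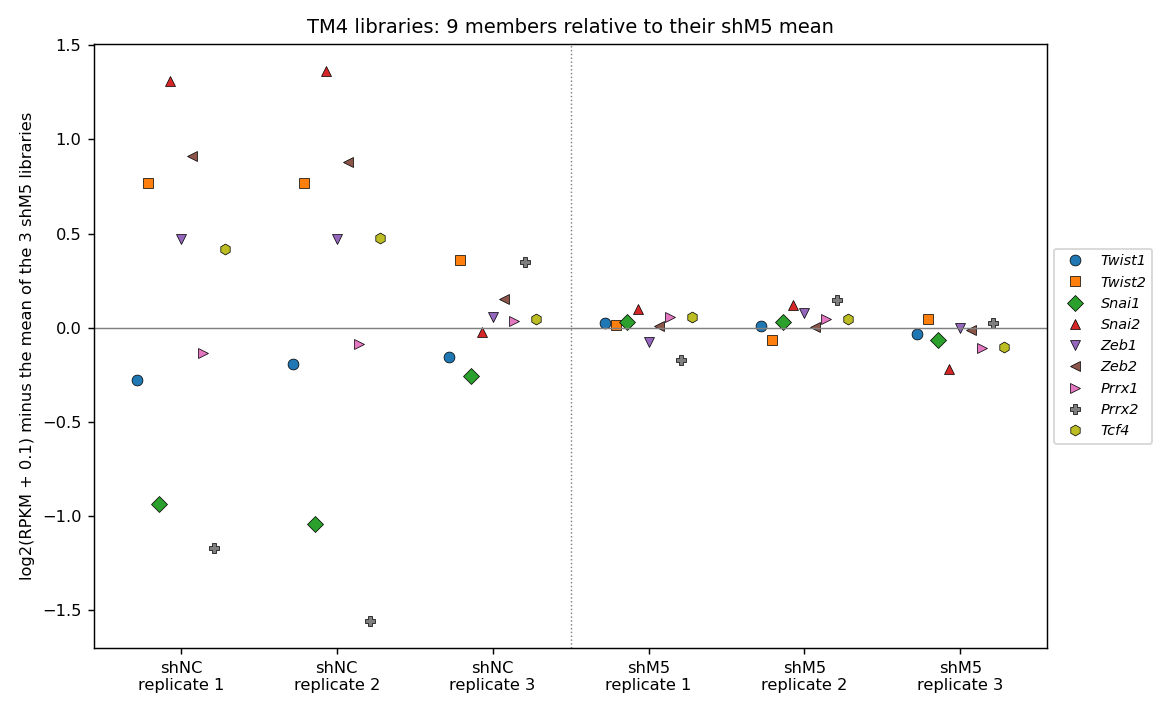
log2(RPKM + 0.1) of 9 members in the 6 TM4 libraries (x axis) minus the mean of the 3 shM5 libraries of the same member, 1 symbol per member. Snai2, Zeb2 and Twist2 lie well above 0 and Snai1 and Prrx2 well below it in shNC replicates 1 and 2, while shNC replicate 3 lies nearer to the shM5 libraries for 8 of the 9 members.

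Cell type markers moved with the same library. The sum of 5 peritubular myoid markers, mainly Acta2 and Tagln, was 127, 122 and 250 RPKM in TM4 shNC replicates 1 to 3 and 231 to 350 RPKM in the shM5 libraries. That of 11 Sertoli cell markers, led by Kitl, was 79.8, 76.9 and 40.7 RPKM against 34.3 to 38.6 RPKM. Germ cell markers summed to 9.72, 9.96 and 16.2 RPKM against 16.1 to 17.3 RPKM. Leydig cell, macrophage and endothelial markers each summed to at most 1.66 RPKM in each TM4 library. Their part in the result was not tested.

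None of the genes in the lists was called by limma in TM4 cells with all 6 libraries. Without shNC replicate 3, 12 of 18 mesenchymal genes were higher and 2 lower at an adjusted p below 0.05, with a median of 0.74 against 0.04 for all genes. Of all genes 67.4% were called in that fit, and 8.13% at the stricter limits. Col3a1, Pdgfra, Acta2 and Sparc were higher past the stricter limits. Fn1 (-0.46) and Cdh11 (-0.35) were the 2 that were lower. Of the 5 dimer partners and inhibitors tested, Tcf3 (0.86), Id1 (0.64) and Id3 (0.29) were higher and Tcf12 (-0.42) lower. Of the 17 corepressors and stability factors, 7 were higher and 7 lower, among them Ajuba, a LIM protein that binds Snail, at -0.97, and Gsk3b, the kinase that marks Snai1 for breakdown, at -0.58.

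**Figure D5:**
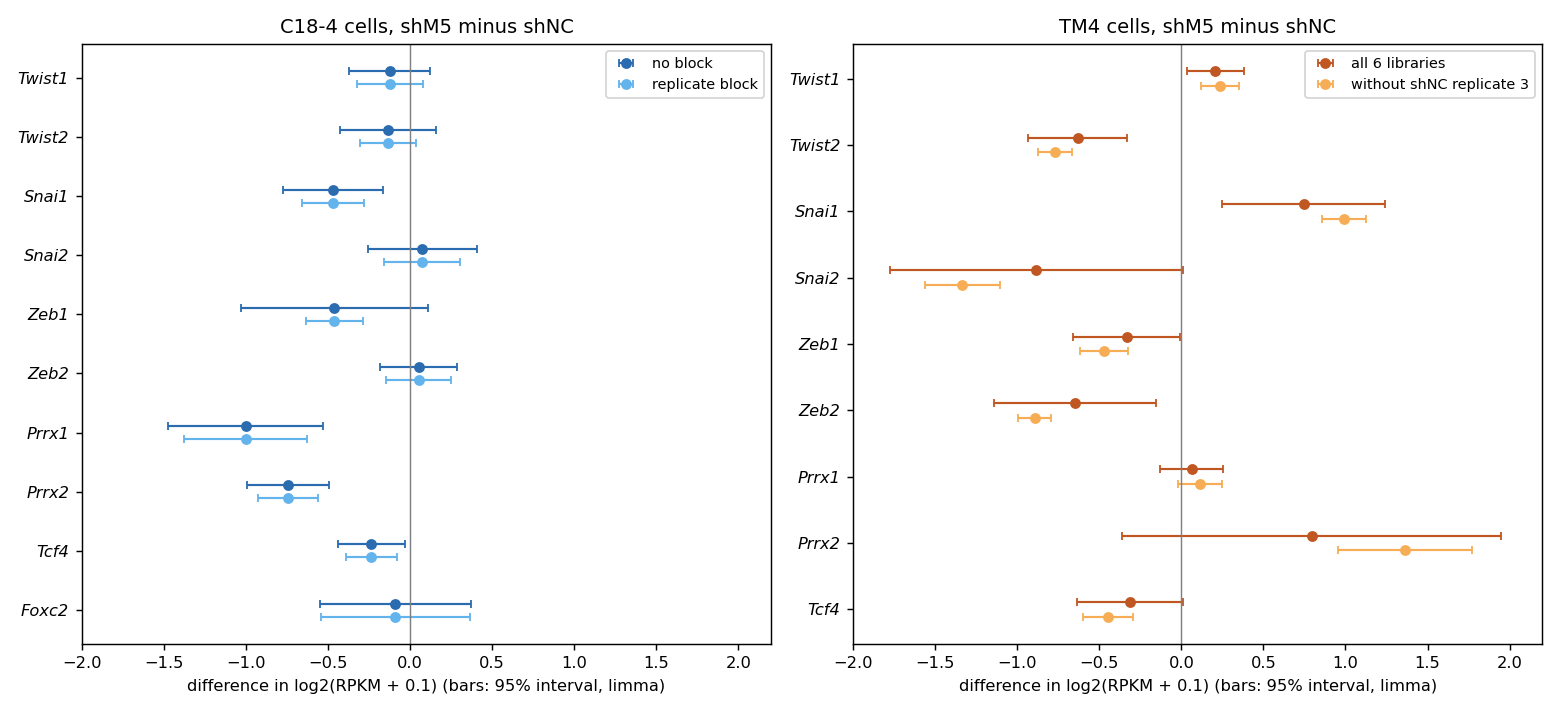
Difference in log2(RPKM + 0.1), shM5 minus shNC, with 95% intervals from limma, for C18-4 cells with and without the replicate block (left) and TM4 cells with and without shNC replicate 3 (right). In C18-4 cells Prrx1 stands at -1.003 and Prrx2 at -0.74, and in TM4 cells without shNC replicate 3 Snai2 stands at -1.33, Snai1 at 0.99 and Prrx2 at 1.36.

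An interaction term over the 12 libraries asked whether the effect of shM5 differed between C18-4 and TM4 cells. No member passed either threshold, against 0% of the 11773 genes tested at the stricter limits and 0.102% at an adjusted p below 0.05, while 2463 genes reached an unadjusted p under 0.05. The difference of the effects, TM4 minus C18-4, was 1.22 for Snai1 (SE 0.26, adjusted p = 0.109, limma), 1.07 for Prrx1 (SE 0.20, adjusted p = 0.0707) and 1.54 for Prrx2 (SE 0.52, adjusted p = 0.193). Without TM4 shNC replicate 3, Snai1 at 1.46 (adjusted p = 9.74e-05), Prrx2 at 2.11 (adjusted p = 6.04e-05) and Snai2 at -1.41 (adjusted p = 0.000267) passed the stricter limits, which 4.68% of all genes passed. Prrx1 at 1.11, Twist1 at 0.36, Twist2 at -0.63 and Zeb2 at -0.95 then passed an adjusted p below 0.05, as did 38% of all genes. Zeb1 and Tcf4 were not called in either fit, with differences of 0.13 and -0.08 in all 12 libraries.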

How the data were processed

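RNA-seq was done by the authors on 3 shNC and 3 shM5 libraries of each line. Per the methods, oligo(dT) enriched mRNA was sequenced on an Illumina HiSeq and mapped to reference genes with SOAPaligner. The deposited file holds RPKM, calculated by the authors and written with 2 decimals. Depth is not given, so the counting error of a value is unknown, and the genome build and annotation are not given in the sources used here. DEGseq, the authors' test, was not used here.

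Groups and replicate numbers came from the sample titles. log2(RPKM + 0.1) was fitted with limma (version 3.58.1, R 4.3.3, eBayes with a trend), keeping genes whose libraries in the fit averaged 0.5 RPKM or more, and Benjamini-Hochberg adjustment ran over all of them. The stricter limits are those of the methods. In C18-4 cells the deviations of same-numbered libraries from their group means correlated (0.439, 0.409 and 0.631 for replicates 1 to 3), from which the pairing is taken. Replicates 1 and 2 of different number correlated nearly as well, at 0.341 and 0.345. Replicate 3 of 1 group correlated with replicates 1 and 2 of the other at -0.514 to -0.467. The values thus set replicate 3 apart and pair replicates 1 and 2 only weakly.

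The members and lists were chosen with earlier results of these data known. Named were all members, listed genes past the stricter limits with shM5 (none), the 3 highest genes of each list between the lines with Cdh1, Epcam, Cdh2 and Vim, the 3 genes most like each member, and Chrm5; any further gene was picked after its values were seen. Alternatives were pseudocounts of 1 and 0.01, no filter and a filter at 1 RPKM, rescaling, quantile normalisation, no trend, all libraries in 1 fit, a replicate block and leaving out each library. Leaving out both replicate 3 libraries, and combining alternatives with an adjusted p below 0.05 alone, were added after seeing the data.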

Additional observations from a re-analysis of the deposited data

How the results depend on the processing

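At the stricter limits no member was called for shM5 in C18-4 cells under any alternative run. At an adjusted p below 0.05 alone the count there was 1, Prrx2, with the usual fit, pseudocounts of 1 and 0.01 and the filter at 1 RPKM, 1, Prrx1, with quantile normalisation and all 12 libraries in 1 fit, 0 with no filter, rescaling or no trend, 4 with the replicate block, 0 to 1 when single libraries were left out, and 5, all lower, without both replicate 3 libraries (Snai1, Zeb1, Prrx1, Prrx2 and Tcf4). Of all genes 0.586% passed in the usual C18-4 fit, 11.9% with the block and 26.2% without both replicate 3 libraries. In TM4 cells leaving out single libraries gave 0 to 2 members at the stricter limits and 0 to 8 at the looser one, the highest without shNC replicate 3, and leaving out both replicate 3 libraries gave 3 and 9. Of all genes 8.13% and 67.4% passed without TM4 shNC replicate 3, and 9.26% and 72.7% without both. TM4 replicates share only a number, with correlations of 0.0729, 0.0489 and 0.127, and a replicate block called 0 members there. For the difference between the lines in the shM5 effect the counts were 0 to 3 and 0 to 7 when single libraries were left out, and 1 at the looser limit with quantile normalisation. The highest counts came without TM4 shNC replicate 3, where 4.68% and 38% of all genes passed. With quantile normalisation 57 of 11773 genes passed the looser limit.

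For TM4 against C18-4 shNC cells the stricter count of 4 became 2 with a replicate block, although the numbers did not pair these libraries (correlations of -0.225, -0.198 and -0.303), 7 in the shM5 libraries, and 2 to 6 when single libraries were left out. At the looser limit it was 8 in the usual fit, with the replicate block, either pseudocount, the filter at 1 RPKM, rescaling or no trend, 9 without a filter, with quantile normalisation, in the shM5 libraries and without both replicate 3 libraries, and 8 to 9 when single libraries were left out. Without a filter, and without any single TM4 shNC library, these counts include Foxc2, which entered through its C18-4 libraries alone. Nothing is read from its call. At the stricter limits 4 members were higher and 1, Prrx2, was lower with a pseudocount of 1 and without both replicate 3 libraries. Without a filter 4 were higher and 1, Foxc2, was lower. Of all genes 19.2% passed these limits in the usual fit, 25.2% in the shM5 libraries and 26.5% without TM4 shNC replicate 3. At the looser limit 55.2% passed in the usual fit. A sign changed for Foxc2 in C18-4 cells (0.011 with quantile normalisation, and -0.16 to 0.0041 when single libraries were left out) and, for the difference between the lines, for Zeb1 (-0.11 to 0.31 when single libraries were left out) and Tcf4 (-0.21 to 0.0045). None of these was called. Of 664 values of single members under the alternatives, 635 kept their direction and side of the threshold, 19 passed it newly, 5 no longer passed it and 5 changed sign. Most of these values belong to the shM5 effect in either line or to its difference between the lines. There no gene passed the stricter limits in the usual fit, so a kept side of the threshold shows little about stability. Of the dimer partners and inhibitors, 1 in place of 3 passed the stricter limits between the lines with the replicate block. The unknown depth leaves Foxc2, TM4 Prrx2 and C18-4 Prrx1, near or below 3 RPKM, without a counting error, and with 3 libraries a group 1 library can decide a call. The cause was not tested.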

Other observations

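Of 19 relatives of these factors with values, 8 had a higher mean in C18-4 and 8 in TM4 shNC cells. Of these relatives 5 reached 0.5 RPKM in both lines, 4 in C18-4 cells alone and 2 in TM4 cells alone, and no count of calls is given. Shox2, a homeobox factor of limb mesenchyme, was at 3.85 ± 1.04 RPKM in C18-4 and 36.9 ± 5.90 RPKM in TM4 shNC cells (SD, n = 3), a log2 difference of 3.25 (adjusted p = 2.02e-05, limma). Foxf2, a forkhead factor of mesenchyme, was at 1.66 ± 0.454 and 17.9 ± 3.84 RPKM. Scx, a basic helix-loop-helix factor of tendon, was at 16.2 ± 0.560 and 0.180 ± 0.122 RPKM. For shM5 no relative was called in either line by limma with all libraries. With the replicate block Foxf1 and Msx1, of 9 relatives tested, were lower in C18-4 cells at an adjusted p below 0.05, at -0.45 and -0.39. That fit called 11.9% of all genes, 6.73% lower. Snai3, the remaining Snail gene, stayed at or below 0.65 RPKM in each library.

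The genes whose profile over the 12 libraries was most like a member, after centring log2(RPKM + 0.1) on the mean of each line, were found among 10007 genes by the root mean square difference. For Zeb2 they were Gla (0.0431), Zfr (0.0623) and Mospd1 (0.0638), against a spread of Zeb2 itself of 0.293. For Snai2 they were Zfp945 (0.0804), Tbpl1 (0.0852) and Gm20939 (0.0893), against 0.464. For Twist2 they were Pmm2 (0.0898), Aatf (0.0978) and Exosc4 (0.103), and for Twist1 Yipf1 (0.0580), Klhl17 (0.0670) and Ndufb11 (0.0672). Snai1 was followed most closely by Samd1 (0.0919), Ckap2l (0.108) and Fzd1 (0.114), Zeb1 by Ralgps1 (0.0684), Txndc16 (0.0904) and Orai2 (0.0942), and Tcf4 by Map2k1 (0.0565), Stard3nl (0.0578) and Rbfox2 (0.0623). For Prrx1 they were Plxnd1 (0.135), Gm46620 (0.143) and Sh2b2 (0.155), against a spread of 0.384. For Prrx2 they were Pard6g (0.196), Spsb1 (0.201) and Slc39a10 (0.208), against 0.571. The spread of Twist1 was 0.117. The distances are not scaled to these spreads, so they do not rank the members by how closely they were matched. These likenesses rest on the same 12 libraries and their shared differences between libraries, and say nothing of shared function.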
